A study of Homo sapiens with 12 samples.

Results

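The 6 control libraries of a CD146 study in human liver tumour lines were compared by line: 3 libraries labelled Hep3B that carried a Tet-on control shRNA and 3 HepG2 libraries that carried the pLVX vector. They are the libraries whose labels name neither the CD146 shRNA nor the CD146 vector, and they make up 6 of the 12 libraries of the series. The other 6, with CD146 (gene MCAM) lowered by shRNA in cells labelled Hep3B or raised from a vector in HepG2, serve only to show how each difference behaved a second time. Hep3B and HepG2 are established human cell lines from liver tumours. The cells labelled Hep3B grew in DMEM and HepG2 grew in MEM with sodium pyruvate, both with fetal bovine serum. Line, vector and culture medium therefore cannot be told apart in any value below. Whether the 3 libraries of a group are separate cultures is not stated, and each p-value then rests on a spread among libraries that could be technical.

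Hepatocytes make most plasma proteins, run the urea cycle, build and clear lipoproteins, and modify drugs and bile acids. A set of transcription factors (HNF4A, the FOXA and ONECUT factors, CEBPA) maintains this programme, and liver tumour lines keep it to different degrees. HepG2 is known for keeping much of the fetal liver programme and for an activating deletion in beta-catenin, the effector of WNT signalling. Hep3B is known to make alpha-fetoprotein and albumin as well.

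RNA was selected by its poly(A) tail and sequenced. Total depth was 13.8M to 16.7M counts (M, 1e+06) in the libraries labelled Hep3B and 12.8M to 16.7M in HepG2, and 26361 to 27383 and 24377 to 25481 genes had a count. CPM below are counts per 1e+06 after TMM scaling of the 6 libraries together. The detection floor was set at 3 counts, or 0.159 to 0.193 CPM in the libraries labelled Hep3B and 0.202 to 0.268 CPM in HepG2. Log2 differences are HepG2 minus labelled Hep3B, with a standard error (SE). The 10 most abundant genes took 7.32% to 7.53% of the counts labelled Hep3B and 15.3% to 15.9% of those of HepG2, and this decides how the lines are scaled: dividing by library totals alone moved the median log2 difference of all genes by -0.36 and left 36.5% of the calls higher in HepG2 in place of 49.5%. Differences of at least 4-fold are therefore given the most room, and a gene that was not called here is not shown to be equal in the lines.

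The lines differed at most genes. Of 17401 genes with enough counts to test, 14817 (85.2%) were called at an adjusted p under 0.05, 7332 (42.1%) higher in HepG2 and 7485 (43%) higher in the libraries labelled Hep3B. The groups did not overlap at 14808 genes (85.1%). At least 4-fold differences were called at 4689 genes (26.9%): 2182 (12.5%) were higher in HepG2 and 2507 (14.4%) higher in the libraries labelled Hep3B. With limma on log2(FPKM + 1) the 4-fold counts were 738 and 878, and with no filter on low counts they were 3545 and 4022. The median log2 difference over all genes tested was -0.02, and the median absolute difference was 0.91. Counts of list members below are read against 12.5% and 14.4%. They cover tested members only, and a gene silent in a line was tested only through the line where it was high, so they describe the lists and support nothing beyond that.

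Many genes were present in a single line. At least 10 CPM in all 3 libraries of a line with at most 3 counts in each library of the other was found for 320 genes in the libraries labelled Hep3B, of which 281 are protein coding, and for 314 genes in HepG2, of which 267 are protein coding. Of these, 80 and 126 had 0 counts in all 3 libraries of the other line. Of the 2182 and 2507 genes at least 4-fold higher in HepG2 or labelled Hep3B controls, 2109 and 2371 were tested in CD146-perturbed libraries. The others are left out of the shares that follow. The CD146-perturbed libraries gave the same direction for 2102 of the 2109 genes (99.7%) that were at least 4-fold higher in HepG2 controls and tested there, and for 2369 of 2371 (99.9%) of those at least 4-fold higher in controls labelled Hep3B. Called at least 4-fold there too were 1886 and 2164 of them, against 12.2% and 15.8% of all genes tested there. By the adjusted p alone, 84.9% of genes were called there, 41.4% higher in HepG2 and 43.5% higher in the libraries labelled Hep3B, and 28% were called at least 4-fold.

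The genes that are known to mark the lines went against the label Hep3B. AFP, the alpha-fetoprotein gene, had 6878, 6604 and 6921 CPM in HepG2 and 0 counts in every control library labelled Hep3B. ALB, the albumin gene, had 0, 5 and 0 counts in the control libraries labelled Hep3B and 24710.4, 23575 and 24463 CPM in HepG2. In the CD146-perturbed libraries the log2 differences were smaller. AFP was at 11.70 there and at least 15.28 in controls, and ALB was at 11.50 and 17.86. This was not particular to AFP and ALB. APOB was at 11.84 there and 16.09 in controls, and TF was at 11.42 and 15.35. IGF2 went the other way, at 9.69 and 7.74. Counts given for libraries labelled Hep3B are those of the controls, and such zeros need not hold in the perturbed libraries. The libraries labelled Hep3B are called by their label throughout, and no other name is given to the cells. MCAM, the gene of CD146 itself, was 3.99-fold higher in the libraries labelled Hep3B, with 102, 99.5 and 107 CPM in the libraries labelled Hep3B and 25.3, 26 and 26.1 CPM in HepG2 (log2 difference -2.00, SE 0.06, edgeR adjusted p = 1.73e-56).

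The hepatocyte programme was present in HepG2 and at or near 0 in the libraries labelled Hep3B. Of the hepatocyte markers, 26 of 28 were tested, 25 were called higher in HepG2 (25 of them at least 4-fold) and 0 higher in the labelled Hep3B libraries (0 at least 4-fold), and their median log2 difference was 13.58, or 10.85 with lines of at most 3 counts per library set to the floor. CYP3A4 and C9 were too low in both lines to test. The summed level of the list was 9.71 to 10.9 CPM in the libraries labelled Hep3B and 73637 to 76695 CPM in HepG2, and 7 markers had 0 counts in all 3 libraries labelled Hep3B. SERPINA1, which encodes the protease inhibitor alpha-1 antitrypsin, had 4945, 4719.6 and 4708 CPM in HepG2 and 0, 0 and 1 counts in the libraries labelled Hep3B (edgeR adjusted p = 1.02e-116). TTR, the carrier of thyroid hormone and retinol binding protein, had 39.1, 36.7 and 34.9 CPM in HepG2 and 0 counts in every control library labelled Hep3B (at least 216-fold higher in HepG2, edgeR adjusted p = 1.32e-63). The log2 difference of TTR was 5.34 in the CD146-perturbed libraries, against at least 7.76 in controls. In bulk RNA, fewer cells of a type and less RNA per cell cannot be told apart.

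The transcription factors that maintain the hepatocyte programme were mostly lower in the libraries labelled Hep3B, by very different amounts. Of the liver transcription factors, 25 of 25 were tested, 19 were called higher in HepG2 (16 of them at least 4-fold) and 5 higher in the labelled Hep3B libraries (0 at least 4-fold), with a median log2 difference of 3.17. FOXA2, a pioneer factor of endoderm and liver, had 28.1, 28.6 and 27 CPM in HepG2 and 0 counts in every library labelled Hep3B (at least 164-fold higher in HepG2, edgeR adjusted p = 1.32e-58). ONECUT1 (HNF6) had 55.2, 52.6 and 55.6 CPM in HepG2 and 0 counts in every library labelled Hep3B (at least 319-fold higher in HepG2, edgeR adjusted p = 3.29e-71). GATA4, an endoderm factor, had 41, 35.9 and 35.1 CPM in HepG2 and 0 counts in every library labelled Hep3B (at least 219-fold higher in HepG2, edgeR adjusted p = 2.09e-63). NR0B2 (SHP), the nuclear receptor that restrains bile acid synthesis, had 29.1, 27.4 and 26.3 CPM in HepG2 and 0 counts in every library labelled Hep3B (at least 162-fold higher in HepG2, edgeR adjusted p = 3.23e-58). These 4 genes had no count in any library labelled Hep3B.

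HNF4A, the nuclear receptor at the centre of the programme, was not at 0, with 8.72, 6.37 and 6.2 CPM in the libraries labelled Hep3B and 352, 369 and 352 CPM in HepG2 (log2 difference 5.65, SE 0.06, edgeR adjusted p = 1.87e-95). CEBPA, a leucine zipper factor of differentiated hepatocytes, likewise had 8.35, 7.01 and 6.26 CPM in the libraries labelled Hep3B and 63.2, 66.5 and 65.3 CPM in HepG2 (log2 difference 3.17, SE 0.08, edgeR adjusted p = 5.40e-62). ONECUT2 was higher in the libraries labelled Hep3B, with 150.1, 133 and 143 CPM in the libraries labelled Hep3B and 86.1, 84.2 and 82.7 CPM in HepG2 (log2 difference -0.75, SE 0.05, edgeR adjusted p = 8.89e-30), opposite to ONECUT1. CEBPB, the stress-responsive paralog of CEBPA, had 34.7, 28.4 and 27 CPM in the libraries labelled Hep3B and 28.8, 27.1 and 26 CPM in HepG2 (log2 difference -0.14, SE 0.07, edgeR adjusted p = 0.0678), and its difference did not pass the test.

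**Figure D1:**
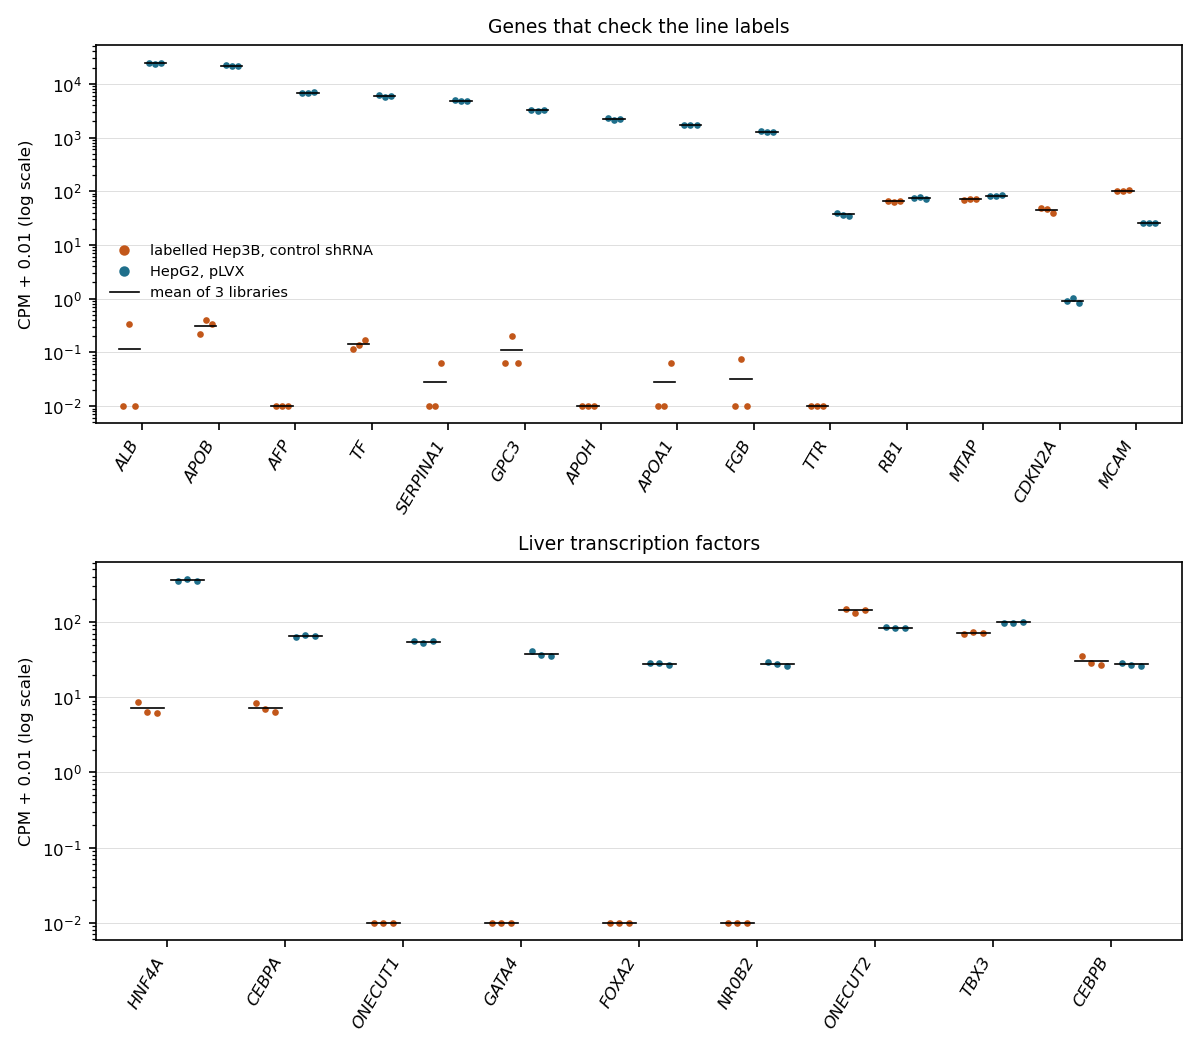
CPM + 0.01 on a log scale of genes that check the line labels (upper) and of liver transcription factors (lower) in the 3 control libraries of each line; dots are libraries, bars are means, and dots at 0.01 have 0 counts. ALB, APOB and AFP are the highest in HepG2 and near 0 in the libraries labelled Hep3B, while RB1 and MTAP lie side by side.

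Promoter sequences are shown for genes that were near 0 in one line and abundant in the other, with the letters of 2 core elements that were searched for. Each is 140 bases that end just before the RefSeq start of the gene, 5′ to 3′ on the gene's strand, from GRCh38.p14. In AFP, FABP1 and CGA capitals mark a TATA box, the element that places the start of transcription, and in SP5 they mark the letters of a TCF site on the other strand.
AFP: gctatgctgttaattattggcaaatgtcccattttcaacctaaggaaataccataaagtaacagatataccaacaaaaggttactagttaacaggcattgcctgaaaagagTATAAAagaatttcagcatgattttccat
FABP1: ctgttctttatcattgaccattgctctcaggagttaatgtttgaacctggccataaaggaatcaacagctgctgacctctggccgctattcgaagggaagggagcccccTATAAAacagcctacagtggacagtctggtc
SP5: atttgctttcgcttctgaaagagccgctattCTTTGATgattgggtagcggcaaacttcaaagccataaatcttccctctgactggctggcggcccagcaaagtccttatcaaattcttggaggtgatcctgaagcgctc
CGA: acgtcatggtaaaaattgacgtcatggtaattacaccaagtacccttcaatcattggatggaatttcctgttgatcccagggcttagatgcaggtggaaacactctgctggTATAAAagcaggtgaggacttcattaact
The windows are chr4:73436081-73436220 (plus strand) for AFP, chr2:88128063-88128202 (minus) for FABP1, chr2:170715197-170715336 (plus) for SP5 and chr6:87095107-87095246 (minus) for CGA. The TCF letters of SP5 begin 109 bases before its start.

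Within 250 bases upstream, on either strand, the TATA box letters TATAAA were in 8.59% of 1316 promoters of genes at least 4-fold higher in HepG2, in 9.29% of 1583 promoters of those at least 4-fold higher in the libraries labelled Hep3B and in 5.71% of 11689 promoters of genes tested. They were in 11.1% of all 27305 promoters in the table, and in 3 of 19 hepatocyte markers with a promoter there. The box begins 29 bases before the start in AFP and CGA and 31 bases before it in FABP1. The TCF letters ATCAAAG, also read on either strand, were in 1.9%, 1.07% and 1.34% of the same groups. They were in 2.28% of all 27305 promoters, and in 1 of 9 WNT feedback genes with a promoter in the table. A match of letters is a description of the sequence and not a binding site.

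Oncofetal genes, which are active in fetal liver and again in liver tumours, were mostly higher in HepG2. Of the list, 13 of 15 were tested, 11 were called higher in HepG2 (8 of them at least 4-fold) and 2 higher in the labelled Hep3B libraries (1 at least 4-fold). For oncofetal liver genes, the 4-fold count in labelled Hep3B was 2 with upper-quartile scaling, library totals, DESeq2, labelled Hep3B replicate 1 left out or HepG2 replicate 3 left out. GPC3, the surface proteoglycan glypican-3, had 3306, 3159 and 3226 CPM in HepG2 and 1, 3 and 1 counts in the libraries labelled Hep3B (log2 difference 14.95, SE 0.10, edgeR adjusted p = 1.28e-115). DLK1, a membrane protein of hepatoblasts, had 88.9, 83.4 and 89.5 CPM in HepG2 and 0, 1 and 0 counts in the libraries labelled Hep3B (edgeR adjusted p = 1.52e-80). LIN28B, the RNA-binding protein that blocks let-7 maturation, had 113, 123 and 126 CPM in HepG2 and 0, 1 and 2 counts in the libraries labelled Hep3B (edgeR adjusted p = 1.69e-85). Its partners in fetal growth IGF2BP2 and IGF2BP3, which bind IGF2 mRNA, were present in both lines. IGF2BP2 had 71.8, 71.2 and 67.7 CPM in the libraries labelled Hep3B and 179, 165 and 163 CPM in HepG2. IGF2BP3 had 97.5, 106 and 101 CPM in the libraries labelled Hep3B and 131, 128 and 134 CPM in HepG2. IGF2 itself, the fetal growth factor, was 214-fold higher in HepG2, with 1.69, 1.35 and 1.39 CPM in the libraries labelled Hep3B and 323, 316 and 323 CPM in HepG2.

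Markers of other liver and blood cells were low in both lines, with exceptions in each. Of 12 endothelial markers, 6 were tested and 4 were at least 4-fold higher in the libraries labelled Hep3B, and their summed level was 44.6 to 45.8 CPM there and 9.18 to 12.2 CPM in HepG2. ERG, an ETS factor of endothelium, had 16.4, 19.1 and 15.3 CPM in the libraries labelled Hep3B and 0 counts in every library of HepG2 (at least 71.4-fold higher in the labelled Hep3B libraries, edgeR adjusted p = 3.22e-46). For endothelial markers, the 4-fold count in HepG2 was 1 with DESeq2 or no filter on low counts. KDR, FLT1, TEK, TIE1, CLDN5 and ROBO4 were too low to test. Of 14 fibroblast and stellate markers, 6 were tested, 3 were called higher in HepG2 (2 of them at least 4-fold) and 3 higher in the labelled Hep3B libraries (2 at least 4-fold). COL1A1, a type I collagen chain, had 53.7, 53.9 and 48.3 CPM in the libraries labelled Hep3B and 1.87, 1.48 and 1.21 CPM in HepG2 (log2 difference -5.10, SE 0.12, edgeR adjusted p = 2.46e-64). ACTA2, on the same list, went the other way, with 2.17, 1.54 and 1.12 CPM in the libraries labelled Hep3B and 25.4, 24 and 25.9 CPM in HepG2 (log2 difference 3.95, SE 0.14, edgeR adjusted p = 6.21e-49). DCN, LUM, COL3A1, PDGFRA, THY1 and FAP were too low to test. Of 13 leukocyte markers, 4 were tested, and PTPRC, CD3E and CD68 were not among them. LYZ, the lysozyme gene, alone made up most of the 1443 to 1517 CPM of that list in HepG2, with 1448, 1436 and 1509.6 CPM in HepG2 and 0, 1 and 0 counts in the libraries labelled Hep3B (edgeR adjusted p = 2.53e-112). CSF1R, the receptor of macrophage colony-stimulating factor, had 5.6, 5.59 and 4.97 CPM in the libraries labelled Hep3B and 1, 1 and 0 counts in HepG2 (edgeR adjusted p = 8.39e-27). Of 12 erythroid markers, 2 were tested, and HBE1, the embryonic beta-like globin, had 17, 13.2 and 13.5 CPM in the libraries labelled Hep3B and 2, 1 and 2 counts in HepG2 (log2 difference -6.73, SE 0.28, edgeR adjusted p = 8.24e-43). For leukocyte markers, the 4-fold count in HepG2 was 2 with labelled Hep3B replicate 2 left out. For erythroid markers, the 4-fold count in labelled Hep3B was 1 with labelled Hep3B replicate 1 left out or labelled Hep3B replicate 3 left out. The part of other cells in the line difference was not tested.

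The bile duct list was split between the lines. Of the cholangiocyte markers, 9 of 11 were tested, 5 were called higher in HepG2 (4 of them at least 4-fold) and 4 higher in the labelled Hep3B libraries (4 at least 4-fold). KRT7, a keratin of ducts, had 115, 119.9 and 118 CPM in the libraries labelled Hep3B and 1, 2 and 1 counts in HepG2 (log2 difference -10.03, SE 0.15, edgeR adjusted p = 2.47e-83). KRT19, another duct keratin, went the other way, with 31.4, 29.3 and 30.4 CPM in HepG2 and 3, 2 and 0 counts in the libraries labelled Hep3B (log2 difference 8.21, SE 0.22, edgeR adjusted p = 1.02e-59). SPP1 (osteopontin) had 0.159, 0.257 and 0.107 CPM in the libraries labelled Hep3B and 621, 706 and 695 CPM in HepG2 (log2 difference 11.89, SE 0.10, edgeR adjusted p = 7.43e-106). EPCAM, the epithelial adhesion molecule, was present in both lines and 3.48-fold higher in HepG2.

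Simple epithelial genes were split between the lines, and the squamous genes that were tested were higher in the libraries labelled Hep3B. Of the simple epithelial genes, 16 of 20 were tested, 9 were called higher in HepG2 (6 of them at least 4-fold) and 5 higher in the labelled Hep3B libraries (2 at least 4-fold). CDH1, which encodes E-cadherin, was 132-fold higher in HepG2, with 0.74, 1.16 and 0.428 CPM in the libraries labelled Hep3B and 101, 100 and 100.1 CPM in HepG2. CLDN7, a tight junction claudin, had 68.6, 61 and 62.3 CPM in the libraries labelled Hep3B and 1, 0 and 2 counts in HepG2 (edgeR adjusted p = 1.81e-71). CLDN6, a claudin of embryonic epithelium, had 8.75, 9.11 and 9.9 CPM in HepG2 and 1, 0 and 0 counts in the libraries labelled Hep3B (edgeR adjusted p = 3.31e-38). VIL1, the microvillus protein villin, had 0.529, 0.129 and 0.16 CPM in the libraries labelled Hep3B and 325, 323 and 319 CPM in HepG2 (log2 difference 10.12, SE 0.10, edgeR adjusted p = 1.57e-99). The keratin KRT8 was high in both lines, with 593, 602 and 573 CPM in the libraries labelled Hep3B and 458, 442 and 420.1 CPM in HepG2, and the splicing factor ESRP2 differed by 1.27-fold. Of the squamous epithelial genes, 10 of 18 were tested, 0 were called higher in HepG2 (0 of them at least 4-fold) and 10 higher in the labelled Hep3B libraries (9 at least 4-fold). LAMB3, a chain of laminin-332, had 80.5, 78.8 and 83.8 CPM in the libraries labelled Hep3B and 1, 0 and 6 counts in HepG2 (log2 difference -8.74, SE 0.16, edgeR adjusted p = 1.28e-74). KRT13, a keratin of stratified epithelium, had 26, 28.3 and 26.8 CPM in the libraries labelled Hep3B and 0, 1 and 1 counts in HepG2 (edgeR adjusted p = 5.21e-56). DSC3, a desmosomal cadherin, was 20.4-fold higher in the libraries labelled Hep3B. TP63, KRT5, KRT14 and IVL, which define stratified squamous cells, were too low to test in either line.

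Mesenchymal genes were not shifted in a single direction. Of the list, 17 of 18 were tested, 6 were called higher in HepG2 (5 of them at least 4-fold) and 10 higher in the labelled Hep3B libraries (7 at least 4-fold), with a median log2 difference of -0.86. VIM, the intermediate filament vimentin, had 471, 477 and 477 CPM in the libraries labelled Hep3B and 2.68, 2.83 and 1.93 CPM in HepG2 (log2 difference -7.57, SE 0.07, edgeR adjusted p = 2.80e-100). S100A4, a calcium-binding protein of motile cells, had 430.3, 402 and 389 CPM in the libraries labelled Hep3B and 2.86, 1.48 and 2.09 CPM in HepG2 (log2 difference -7.61, SE 0.08, edgeR adjusted p = 4.74e-97). FN1, the fibronectin gene, which hepatocytes also secrete into plasma, was 2795-fold higher in HepG2, with 3.81, 3.02 and 4.49 CPM in the libraries labelled Hep3B and 11106, 10348 and 10604 CPM in HepG2. TGFBI, an extracellular matrix protein, was 413-fold higher in HepG2. ZEB1, a repressor of E-cadherin, was present in both lines, with 45.8, 47.8 and 46.1 CPM in the libraries labelled Hep3B and 29.6, 26 and 29.5 CPM in HepG2 (log2 difference -0.72, SE 0.06, edgeR adjusted p = 9.53e-19). LOX, which cross-links collagen, had 28, 26.9 and 30.8 CPM in the libraries labelled Hep3B and 31.1, 28 and 29.5 CPM in HepG2, and its difference did not pass the test (edgeR adjusted p = 0.588).

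The neural list was split between the lines, and the few placental and germline genes that could be tested were higher in the libraries labelled Hep3B. Of the neural genes, 6 of 15 were tested, 3 were called higher in HepG2 (0 of them at least 4-fold) and 3 higher in the labelled Hep3B libraries (3 at least 4-fold). For neural genes, the 4-fold count in labelled Hep3B was 5 with DESeq2 or no filter on low counts. L1CAM, an adhesion molecule of neurons and some carcinomas, was 43.9-fold higher in the labelled Hep3B libraries, with 297, 287 and 302 CPM in the libraries labelled Hep3B and 5.8, 6.95 and 7.33 CPM in HepG2. PAX6, an eye and pancreas homeobox factor, had 19, 17.2 and 17.8 CPM in the libraries labelled Hep3B and 0.268, 0.742 and 0.564 CPM in HepG2 (log2 difference -5.03, SE 0.19, edgeR adjusted p = 5.21e-45). NES, an intermediate filament of progenitors, was higher in HepG2, with 44.9, 41.7 and 48.5 CPM in the libraries labelled Hep3B and 70.8, 75.9 and 74.9 CPM in HepG2 (log2 difference 0.71, SE 0.05, edgeR adjusted p = 9.92e-23). TUBB3, a neuronal tubulin, was 1.64-fold higher in HepG2. SOX2, DCX and STMN2 were too low to test. Of the placental genes, 3 of 19 were tested, 0 were called higher in HepG2 (0 of them at least 4-fold) and 3 higher in the labelled Hep3B libraries (3 at least 4-fold). For placental hormone genes, the 4-fold count in labelled Hep3B was 5 with DESeq2 or no filter on low counts. CGA, the alpha subunit shared by chorionic gonadotropin and pituitary hormones, had 357, 339 and 326 CPM in the libraries labelled Hep3B and 0.446, 0.674 and 0.483 CPM in HepG2 (log2 difference -9.26, SE 0.10, edgeR adjusted p = 2.53e-97). PAPPA, a protease that cleaves IGF binding proteins, was 6.57-fold higher in these libraries, but the CGB, PSG and CSH genes and GCM1 were too low to test. Of the cancer-testis genes, 3 of 19 were tested, 0 were called higher in HepG2 (0 of them at least 4-fold) and 3 higher in the labelled Hep3B libraries (3 at least 4-fold). For cancer-testis genes, the 4-fold count in labelled Hep3B was 5 with DESeq2 and 6 with no filter on low counts. MAGEA1, a cancer-testis antigen, had 86.7, 83.9 and 84.5 CPM in the libraries labelled Hep3B and 0, 1 and 0 counts in HepG2 (edgeR adjusted p = 9.59e-78). MAGEA12 had 9.09, 9.26 and 9.68 CPM in the libraries labelled Hep3B and 0 counts in every library of HepG2 (at least 39.4-fold higher in the labelled Hep3B libraries, edgeR adjusted p = 1.58e-36). MAGEA12 was not among the genes tested in the CD146-perturbed libraries. MAGEA genes are near-identical copies, and reads may have been split between them.

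HOX genes, which record the position of a cell along the body axis and lie in clusters of numbered paralogs, separated the lines by cluster and by number. All of HOXB and HOXC that were tested were higher in the libraries labelled Hep3B, with 7 of 10 HOXB and 7 of 9 HOXC genes tested and called at least 4-fold higher there. Their summed levels were 92.3 to 97.6 CPM for HOXB and 123 to 127 CPM for HOXC in the libraries labelled Hep3B, against at most 0.179 and 0.27 CPM in HepG2. The HOXA cluster was split within itself. HOXA3, near its anterior end, was higher in HepG2, with 8.99, 8.87 and 10.4 CPM in the libraries labelled Hep3B and 18.4, 19.4 and 19.6 CPM in HepG2 (log2 difference 1.02, SE 0.10, edgeR adjusted p = 5.19e-17). HOXA5, in the middle, was lower in HepG2, with 6.4, 5.53 and 5.88 CPM in the libraries labelled Hep3B and 3.84, 4.11 and 3.86 CPM in HepG2 (log2 difference -0.59, SE 0.16, edgeR adjusted p = 0.000558). From HOXA9 on, HepG2 was near 0. HOXA9 had 11.5, 12.1 and 13.9 CPM in the libraries labelled Hep3B and 0 counts in every library of HepG2 (at least 52.7-fold higher in the labelled Hep3B libraries, edgeR adjusted p = 4.02e-41). HOXA10 had 36.8, 34.9 and 37 CPM in the libraries labelled Hep3B and 0, 2 and 1 counts in HepG2 (edgeR adjusted p = 1.53e-61). HOXA13 had 40.8, 43.1 and 42.3 CPM in the libraries labelled Hep3B and 0.179, 0.54 and 0.322 CPM in HepG2 (log2 difference -6.82, SE 0.16, edgeR adjusted p = 2.54e-63). HOXC10 had 32.9, 36 and 33.4 CPM in the libraries labelled Hep3B and 0, 1 and 0 counts in HepG2 (edgeR adjusted p = 1.81e-60). HOXB13, the most posterior of its cluster, had 8.99, 8.94 and 7.86 CPM in the libraries labelled Hep3B and 0 counts in every library of HepG2 (at least 36.2-fold higher in the labelled Hep3B libraries, edgeR adjusted p = 5.91e-35). HOXD genes were low in both lines, at 18.1 to 23.4 CPM in all in the libraries labelled Hep3B and 5.13 to 6.6 CPM in HepG2.

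**Figure D2:**
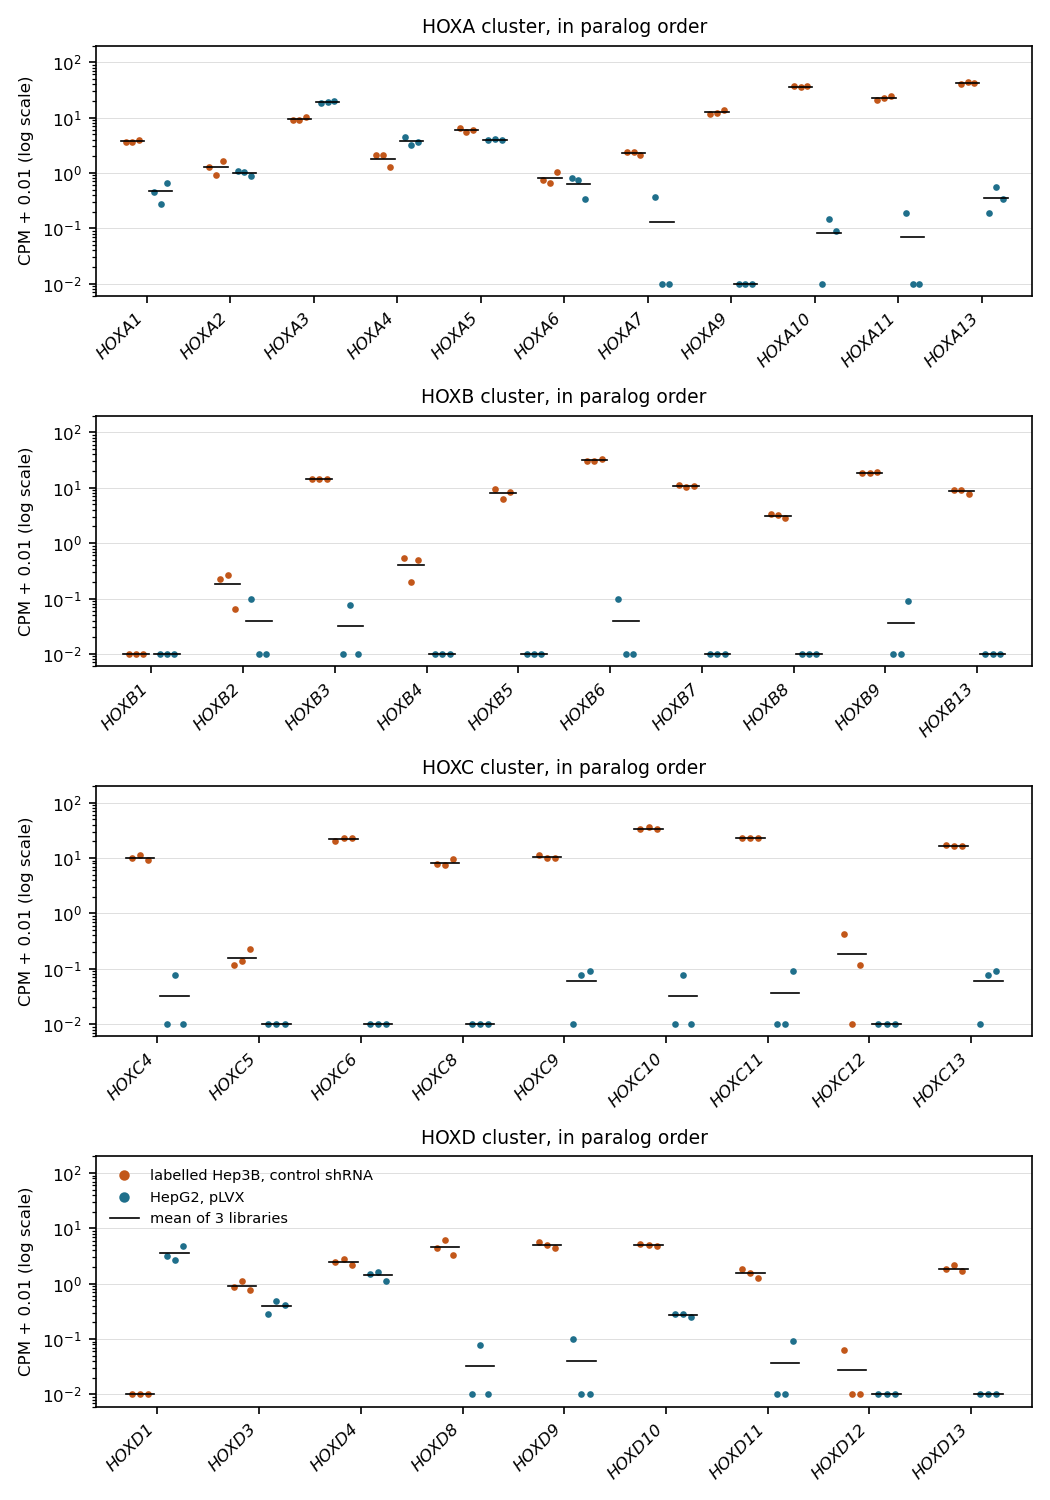
CPM + 0.01 on a log scale of every gene of the 4 HOX clusters in paralog order, for the 3 control libraries of each line; dots are libraries, bars are means, and dots at 0.01 have 0 counts. In HOXA, 1 gene (HOXA3) reached a mean of 5 CPM in HepG2 and 6 genes did in the libraries labelled Hep3B, HOXA3 among them. HOXA9 to HOXA13 and most of HOXB and HOXC are present in the libraries labelled Hep3B and near 0 in HepG2. HOXD genes are low in both lines.

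Most genes of secreted plasma proteins were near 0 in the libraries labelled Hep3B. Of the apolipoproteins and lipoprotein assembly genes, 16 of 18 were tested, 15 were called higher in HepG2 (15 of them at least 4-fold) and 1 higher in the labelled Hep3B libraries (0 at least 4-fold). APOB, the core protein of VLDL and LDL, had 0.211, 0.386 and 0.321 CPM in the libraries labelled Hep3B and 21946, 21189 and 21639 CPM in HepG2 (log2 difference 16.09, SE 0.10, edgeR adjusted p = 1.10e-119). APOA1, the core protein of HDL, had 1699.5, 1702 and 1697 CPM in HepG2 and 0, 0 and 1 counts in the libraries labelled Hep3B (edgeR adjusted p = 2.32e-113). APOA2, another HDL protein, had 1963, 1942 and 1935 CPM in HepG2 and 0 counts in every library labelled Hep3B (at least 11406-fold higher in HepG2, edgeR adjusted p = 2.78e-112). APOH had 2274, 2161 and 2223 CPM in HepG2 and 0 counts in every library labelled Hep3B (at least 13005-fold higher in HepG2, edgeR adjusted p = 1.60e-112). Of the coagulation and fibrinolysis genes, 23 of 24 were tested, 19 were called higher in HepG2 (16 of them at least 4-fold) and 3 higher in the labelled Hep3B libraries (2 at least 4-fold). The 3 fibrinogen chains were near 0 in the libraries labelled Hep3B: FGA had 2836, 2719 and 2809 CPM in HepG2 and 1, 0 and 0 counts in the libraries labelled Hep3B, FGB had 1299.9, 1258 and 1291 CPM in HepG2 and 0, 1 and 0 counts in the libraries labelled Hep3B, and FGG had 2157, 2167 and 2195 CPM in HepG2 and 0 counts in every library labelled Hep3B. F11, coagulation factor XI, had 116, 101 and 103 CPM in HepG2 and 0 counts in every library labelled Hep3B (at least 625-fold higher in HepG2, edgeR adjusted p = 4.00e-82).

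Complement genes were mostly higher in HepG2. Of the list, 18 of 22 were tested, 14 were called higher in HepG2 (13 of them at least 4-fold) and 4 higher in the labelled Hep3B libraries (1 at least 4-fold). C8A, a soluble part of the membrane attack complex, had 48.5, 48.9 and 47.4 CPM in HepG2 and 1, 0 and 0 counts in the libraries labelled Hep3B. Its partner C8B had 20.4, 19.6 and 21.6 CPM in HepG2 and 0 counts in every library labelled Hep3B. MBL2, the lectin that starts the lectin pathway, had 15.8, 18 and 18.7 CPM in HepG2 and 0 counts in every library labelled Hep3B (at least 103-fold higher in HepG2, edgeR adjusted p = 1.56e-49). CFI, the protease that inactivates C3b, had 134, 125 and 136 CPM in HepG2 and 1, 0 and 0 counts in the libraries labelled Hep3B (edgeR adjusted p = 2.11e-87). The membrane regulators CD46 and CD59, which protect a cell from its own complement, were higher in the libraries labelled Hep3B. CD46 was at 1227, 1249 and 1314 CPM in the libraries labelled Hep3B and 517, 527 and 539 CPM in HepG2 (log2 difference -1.26, SE 0.04, edgeR adjusted p = 1.09e-54). CD59 was at 307, 317 and 325 CPM in the libraries labelled Hep3B and 142, 131 and 133 CPM in HepG2 (log2 difference -1.23, SE 0.04, edgeR adjusted p = 4.53e-51).

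Glucose enters a cell through transporters and is phosphorylated by hexokinases, and liver uses its own forms of several of these enzymes. Of the glycolysis genes, 26 of 28 were tested, 9 were called higher in HepG2 (6 of them at least 4-fold) and 15 higher in the labelled Hep3B libraries (5 at least 4-fold), with a median log2 difference of -0.24. SLC2A2 (GLUT2), the transporter of liver and beta cells, had 118, 135 and 131 CPM in HepG2 and 0 counts in every library labelled Hep3B (at least 749-fold higher in HepG2, edgeR adjusted p = 4.35e-85). SLC2A3 (GLUT3), a transporter of neurons, had 297, 286 and 287 CPM in HepG2 and 2, 1 and 3 counts in the libraries labelled Hep3B (log2 difference 11.23, SE 0.11, edgeR adjusted p = 1.80e-99). SLC2A1 (GLUT1) was present in both lines and 2.93-fold higher in HepG2. HK1, the ubiquitous hexokinase, had 138, 135 and 138 CPM in the libraries labelled Hep3B and 2, 3 and 3 counts in HepG2 (log2 difference -9.31, SE 0.13, edgeR adjusted p = 9.53e-86). HK2 was at 83, 95.7 and 91.3 CPM in the libraries labelled Hep3B and 154, 157 and 149 CPM in HepG2 (log2 difference 0.77, SE 0.04, edgeR adjusted p = 3.88e-31). GCKR, a regulatory protein of liver sugar metabolism, had 37.1, 37.8 and 39.1 CPM in HepG2 and 0 counts in every library labelled Hep3B (at least 223-fold higher in HepG2, edgeR adjusted p = 1.78e-64).

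Levels of different forms within a line can be compared as FPKM, which are scaled by gene length. The deposited FPKM were used without TMM scaling. With limma on log2(FPKM + 0.1) the median log2 difference of all genes tested was -0.36. Folds between the lines are therefore read from CPM and not from FPKM. In HepG2, HK2 was at 22.9 ± 0.559 FPKM (SD, n = 3) against 0.0267 ± 0.00577 FPKM for HK1. In the libraries labelled Hep3B, HK1 at 24.6 ± 0.336 FPKM exceeded HK2 at 17.2 ± 1.17 FPKM. Phosphofructokinase was mainly the liver form PFKL in HepG2, at 6.07 ± 0.146 FPKM against 1.05 ± 0.102 FPKM for PFKP, and mainly the platelet form PFKP in the libraries labelled Hep3B, at 19.8 ± 0.724 FPKM against 10.9 ± 0.439 FPKM for PFKL. Pyruvate kinase was mainly PKM in both lines, at 157 ± 4.28 FPKM in the libraries labelled Hep3B and 59.2 ± 2.44 FPKM in HepG2, with the liver form PKLR at 4.27 ± 0.257 FPKM in HepG2 and 0.0233 ± 0.0252 FPKM in the libraries labelled Hep3B. LDHB, the lactate dehydrogenase subunit of oxidative tissues, had 367, 381 and 359 CPM in the libraries labelled Hep3B and 0.357, 0.405 and 0.322 CPM in HepG2 (log2 difference -9.95, SE 0.10, edgeR adjusted p = 4.18e-99). The lactate exporter SLC16A3 (MCT4) was not called, with 183, 201 and 202 CPM in the libraries labelled Hep3B and 191, 201 and 193 CPM in HepG2 (edgeR adjusted p = 0.991).

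**Figure D3:**
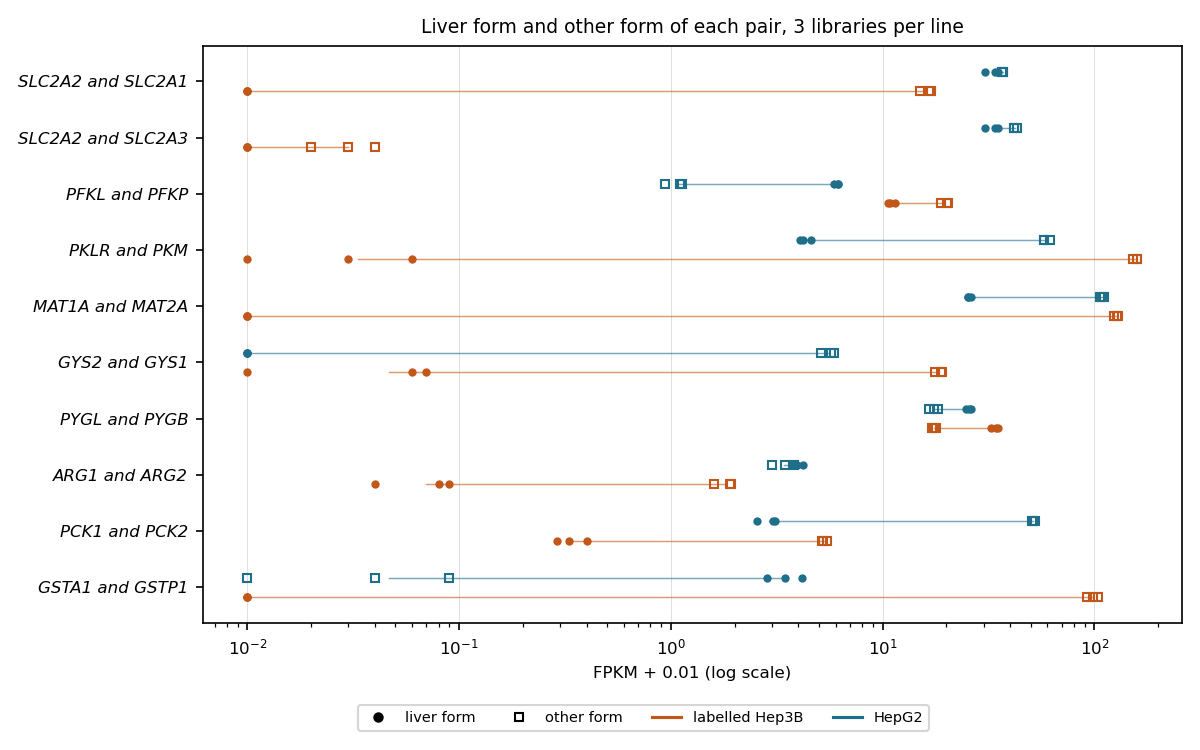
FPKM + 0.01 on a log scale of the liver form (filled circles) and the other form (open squares) of 10 enzyme and transporter pairs, for the 3 control libraries of each line; thin lines join the means. The liver forms SLC2A2, MAT1A, PKLR and GSTA1 lie at or near 0.01 in the libraries labelled Hep3B, and GSTP1 lies low in HepG2.

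Glucose release and glycogen genes differed step by step. Of the gluconeogenesis and glycogen genes, 14 of 17 were tested, 11 were called higher in HepG2 (5 of them at least 4-fold) and 1 higher in the labelled Hep3B libraries (0 at least 4-fold). For gluconeogenesis and glycogen, the genes called higher in HepG2 and in labelled Hep3B numbered 9 and 3 with upper-quartile scaling and 8 and 5 with library totals. G6PC1, the catalytic subunit of glucose-6-phosphatase, had 59.99, 55.2 and 63.4 CPM in HepG2 and 0 counts in every library labelled Hep3B (at least 349-fold higher in HepG2, edgeR adjusted p = 3.60e-72). PCK2, the mitochondrial form of PEP carboxykinase, was 12.5-fold higher in HepG2, and the cytosolic form PCK1 was 11.1-fold higher, so that PCK2 exceeded PCK1 in both lines: at 51.5 ± 0.656 FPKM against 2.89 ± 0.297 FPKM in HepG2 and at 5.28 ± 0.153 FPKM against 0.33 ± 0.0557 FPKM in the libraries labelled Hep3B. KHK, ketohexokinase, which starts fructose use, was 15.1-fold higher in HepG2. Glycogen synthase was GYS1 in both lines, 2.6-fold higher in the libraries labelled Hep3B, and the liver form GYS2 was too low to test. The liver phosphorylase PYGL was not called, with 141, 138 and 131 CPM in the libraries labelled Hep3B and 132, 134 and 127 CPM in HepG2 (edgeR adjusted p = 0.192).

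Genes of amino acid breakdown were mostly higher in HepG2 by count, while their summed levels were closer. The summed level of the list was 2550 to 2650 CPM in the libraries labelled Hep3B and 3071 to 3112 CPM in HepG2. Of the urea cycle and amino acid breakdown genes, 20 of 22 were tested, 17 were called higher in HepG2 (12 of them at least 4-fold) and 3 higher in the labelled Hep3B libraries (3 at least 4-fold). OTC, ornithine transcarbamylase, had 6.61, 6.21 and 5.07 CPM in HepG2 and 0, 1 and 0 counts in the libraries labelled Hep3B (edgeR adjusted p = 1.10e-30). ARG1, the liver arginase, had 9.91, 9.31 and 10.5 CPM in HepG2 and 1, 2 and 3 counts in the libraries labelled Hep3B (log2 difference 6.35, SE 0.30, edgeR adjusted p = 2.85e-38). Per length, HepG2 held ARG1 at 3.95 ± 0.241 FPKM and the extrahepatic form ARG2 at 3.41 ± 0.412 FPKM. The libraries labelled Hep3B held mainly ARG2 (1.8 ± 0.182 FPKM against 0.060 ± 0.0265 FPKM). HGD, an enzyme of tyrosine breakdown, was 102-fold higher in HepG2. GLUL, glutamine synthetase, was 2.25-fold higher there.

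Methionine and one-carbon genes were mixed. Of the methionine and choline genes, 15 of 15 were tested, 11 were called higher in HepG2 (8 of them at least 4-fold) and 3 higher in the labelled Hep3B libraries (1 at least 4-fold). For methionine and choline metabolism, the genes called higher in HepG2 and in labelled Hep3B numbered 9 and 5 with library totals. MAT1A, the liver methionine adenosyltransferase, had 106, 105 and 108 CPM in HepG2 and 0 counts in every library labelled Hep3B (at least 621-fold higher in HepG2, edgeR adjusted p = 3.34e-83). MAT2A, the form of other tissues, was at 488, 514 and 511 CPM in the libraries labelled Hep3B and 567, 540.3 and 553 CPM in HepG2, and its log2 difference of 0.13 became -0.22 with library totals. BHMT2, which makes methionine from S-methylmethionine, had 49.6, 51.3 and 49.7 CPM in HepG2 and 0 counts in every library labelled Hep3B. SARDH, which breaks down sarcosine, had 39.7, 42.2 and 40.8 CPM in HepG2 and 2, 0 and 0 counts in the libraries labelled Hep3B. Of the serine and folate genes, 14 of 14 were tested, 7 were called higher in HepG2 (3 of them at least 4-fold) and 4 higher in the labelled Hep3B libraries (0 at least 4-fold). For serine and folate one-carbon genes, the genes called higher in HepG2 and in labelled Hep3B numbered 5 and 8 with library totals. GLDC, which splits glycine in mitochondria, was 340.4-fold higher in HepG2, with 0.952, 0.772 and 0.963 CPM in the libraries labelled Hep3B and 312, 306 and 312 CPM in HepG2. ALDH1L1, a folate dehydrogenase of liver and astrocytes, had 65.3, 69.6 and 70.04 CPM in HepG2 and 0, 0 and 3 counts in the libraries labelled Hep3B (edgeR adjusted p = 2.59e-75). SHMT2 was not called (edgeR adjusted p = 0.825).

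Most lipid synthesis genes were at 5 CPM or more in both lines, and a few were near 0 in a line. Of the fatty acid synthesis genes, 19 of 21 were tested, 11 were called higher in HepG2 (4 of them at least 4-fold) and 7 higher in the labelled Hep3B libraries (1 at least 4-fold). ACACA, the rate-limiting acetyl-CoA carboxylase, was not called, with 222, 220.5 and 221 CPM in the libraries labelled Hep3B and 241, 229 and 224 CPM in HepG2 (edgeR adjusted p = 0.121). ELOVL6, an elongase, was 27.1-fold higher in HepG2, and the glycerolipid enzymes DGAT2 and GPAM were 9.95-fold and 8.9-fold higher. ME1, malic enzyme, which supplies NADPH, had 47.2, 45.3 and 43.5 CPM in the libraries labelled Hep3B and 1, 1 and 0 counts in HepG2 (edgeR adjusted p = 6.04e-66). Of the cholesterol synthesis genes, 24 of 24 were tested, 15 were called higher in HepG2 (4 of them at least 4-fold) and 5 higher in the labelled Hep3B libraries (1 at least 4-fold). For cholesterol synthesis, the genes called higher in HepG2 and in labelled Hep3B numbered 14 and 10 with library totals, and the 4-fold count in HepG2 was 2 with DESeq2 size factors, upper-quartile scaling, DESeq2, no filter on low counts or labelled Hep3B replicate 3 left out and 1 with library totals. HMGCS1, which makes HMG-CoA in the cytosol, was 4.03-fold higher in HepG2, with 158, 163 and 156 CPM in the libraries labelled Hep3B and 635, 640.0 and 648 CPM in HepG2. INSIG1, which holds the sterol sensor in the endoplasmic reticulum, had 154, 148 and 146 CPM in the libraries labelled Hep3B and 0, 3 and 1 counts in HepG2 (log2 difference -10.38, SE 0.14, edgeR adjusted p = 2.24e-86). DHCR7 and NSDHL, late enzymes of the pathway, were not called, with adjusted p of 0.396 and 0.84 by edgeR.

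Fatty acid oxidation genes were mostly higher in HepG2, with exceptions. Of the list, 21 of 24 were tested, 15 were called higher in HepG2 (5 of them at least 4-fold) and 3 higher in the labelled Hep3B libraries (1 at least 4-fold). For fatty acid oxidation and ketogenesis, the genes called higher in HepG2 and in labelled Hep3B numbered 13 and 7 with library totals, and the 4-fold count in HepG2 was 3 with library totals, and the 4-fold count in labelled Hep3B was 2 with DESeq2, no filter on low counts, labelled Hep3B replicate 2 left out, HepG2 replicate 1 left out or HepG2 replicate 3 left out. FABP1, the liver fatty acid binding protein whose promoter is shown above, had 338, 323 and 342 CPM in HepG2 and 0 counts in every library labelled Hep3B (at least 1960.4-fold higher in HepG2, edgeR adjusted p = 2.42e-99). The peroxisomal enzyme EHHADH was 6.19-fold higher in HepG2. PDK4, the kinase that turns off pyruvate dehydrogenase, went the other way, with 408, 386 and 392 CPM in the libraries labelled Hep3B and 0.536, 0.337 and 0.483 CPM in HepG2 (log2 difference -9.78, SE 0.10, edgeR adjusted p = 1.15e-99). CPT2, which imports fatty acids into mitochondria, was not called, with 22.3, 23.5 and 20.3 CPM in the libraries labelled Hep3B and 21.2, 22.4 and 22.3 CPM in HepG2 (edgeR adjusted p = 0.979).

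Bile acid genes that were tested were mostly higher in HepG2, while the cytochrome P450 genes differed in both directions and many were too low to test. Of the bile acid genes, 18 of 22 were tested, 17 were called higher in HepG2 (13 of them at least 4-fold) and 1 higher in the labelled Hep3B libraries (1 at least 4-fold). For bile acid synthesis and transport, the 4-fold count in labelled Hep3B was 2 with no filter on low counts. CYP27A1, a sterol hydroxylase, was 299.7-fold higher in HepG2, and the phospholipid exporter ABCB4 was at 34.8, 29.5 and 32.6 CPM in HepG2 and 2, 2 and 1 counts in the libraries labelled Hep3B (log2 difference 8.30, SE 0.21, edgeR adjusted p = 4.52e-61). The uptake carriers SLC10A1 and SLCO1B1 and the bile salt pump ABCB11 were too low to test in either line. ABCC2, an exporter of conjugates, was high in both lines, with 340.4, 335 and 352 CPM in the libraries labelled Hep3B and 1213, 1203 and 1198 CPM in HepG2 (log2 difference 1.81, SE 0.04, edgeR adjusted p = 3.39e-69). Of the cytochrome P450 genes, 16 of 24 were tested, 7 were called higher in HepG2 (7 of them at least 4-fold) and 5 higher in the labelled Hep3B libraries (3 at least 4-fold), and the drug-metabolising CYP1A2, CYP2B6, CYP2C8, CYP2C19 and CYP3A4 were too low to test. CYP4F3, which oxidises fatty acids, had 93.4, 98.4 and 107 CPM in HepG2 and 0, 2 and 3 counts in the libraries labelled Hep3B. CYP4F12 had 0.476, 0.129 and 0.428 CPM in the libraries labelled Hep3B and 75, 70.1 and 69.9 CPM in HepG2. CYP4F genes resemble each other closely, and reads may have been split between them.

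The glutathione transferases GSTP1 and GSTA1 differed in opposite directions. Of the conjugation and alcohol genes, 20 of 26 were tested, 15 were called higher in HepG2 (14 of them at least 4-fold) and 4 higher in the labelled Hep3B libraries (4 at least 4-fold), and 16 had 0 counts in all 3 libraries labelled Hep3B. GSTP1, the form of most tissues outside the hepatocyte, had 162, 154 and 145 CPM in the libraries labelled Hep3B and 0, 1 and 2 counts in HepG2 (edgeR adjusted p = 2.80e-86). GSTA1, the hepatocyte form, had 4.11, 5.94 and 4.91 CPM in HepG2 and 0 counts in every library labelled Hep3B (at least 29.2-fold higher in HepG2, edgeR adjusted p = 2.11e-28). SULT2A1, which sulfates steroids and bile acids, had 207, 197 and 198 CPM in HepG2 and 0 counts in every library labelled Hep3B (at least 1175-fold higher in HepG2, edgeR adjusted p = 5.36e-93). ALDH1A1, which oxidises retinal, had 531, 566 and 525 CPM in HepG2 and 0 counts in every library labelled Hep3B (at least 3169-fold higher in HepG2, edgeR adjusted p = 1.11e-103). UGT2B10 had 111, 112 and 119.8 CPM in HepG2 and 0 counts in every library labelled Hep3B (at least 668-fold higher in HepG2, edgeR adjusted p = 5.22e-84), with near-identical UGT2B copies in the genome. ADH4 had 45.1, 44.8 and 45.3 CPM in HepG2 and 0 counts in every library labelled Hep3B (at least 264-fold higher in HepG2, edgeR adjusted p = 8.89e-68), while the class III enzyme ADH5 was present in both lines and 5.11-fold higher in HepG2.

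Iron and metal genes were mostly higher in HepG2. Of the list, 20 of 21 were tested, 16 were called higher in HepG2 (14 of them at least 4-fold) and 4 higher in the labelled Hep3B libraries (3 at least 4-fold). TF, the plasma iron carrier transferrin, had 6055, 5594 and 5834 CPM in HepG2 and 2, 2 and 3 counts in the libraries labelled Hep3B (log2 difference 15.35, SE 0.10, edgeR adjusted p = 4.39e-117). SLC40A1, ferroportin, the cellular iron exporter, had 26.8, 25.8 and 26.6 CPM in HepG2 and 0 counts in every library labelled Hep3B (at least 155-fold higher in HepG2, edgeR adjusted p = 1.48e-57). The metallothionein MT1G had 44.4, 50.9 and 47.9 CPM in HepG2 and 0 counts in every library labelled Hep3B. MT1F had 19, 23.1 and 19.3 CPM in HepG2 and 0 counts in every library labelled Hep3B. Both have close copies in the genome. Of the NRF2 and redox genes, 21 of 22 were tested, 17 were called higher in HepG2 (5 of them at least 4-fold) and 1 higher in the labelled Hep3B libraries (0 at least 4-fold). For NRF2 and redox enzymes, the genes called higher in HepG2 and in labelled Hep3B numbered 16 and 3 with upper-quartile scaling and 15 and 4 with library totals. AKR1B10, an aldo-keto reductase, was 893-fold higher in HepG2. GPX2, a glutathione peroxidase of gut and tumour epithelium, was 3674-fold higher there. AKR1C1 was 2855-fold higher, though its close paralogs may share its reads. PGD and TKT of the pentose phosphate pathway were not called, with adjusted p of 0.606 and 0.529 by edgeR.

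Mitochondrially encoded mRNAs were higher in HepG2, and no nuclear respiratory chain gene tested was called past 4-fold. All 13 mitochondrially encoded mRNAs were called higher in HepG2, none by 4-fold, with a median log2 difference of 0.89, and with library totals 10 were called, and MT-CO3 and MT-ATP6 changed sign (-0.011 and -0.00076). MT-ND6 was 2.82-fold higher, with 605, 800.3 and 768 CPM in the libraries labelled Hep3B and 2066, 2168 and 1888 CPM in HepG2, and MT-ND5 was 2.41-fold higher. Mitochondrial genes took 12.7% ± 0.220 of the counts in HepG2 and 7.85% ± 0.157 in the libraries labelled Hep3B (SD, n = 3). Of 27 nuclear respiratory chain genes, all tested, 6 were called higher in HepG2, 12 higher in the libraries labelled Hep3B and 9 were not called, beside 42.1% and 43% of all genes, with a median log2 difference of -0.09. For the nuclear respiratory chain, the genes called higher in HepG2 and in labelled Hep3B numbered 5 and 22 with library totals. UQCRC2 of complex III was 2.08-fold higher in HepG2, and SDHB of complex II was 1.79-fold higher in the libraries labelled Hep3B.

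**Figure D4:**
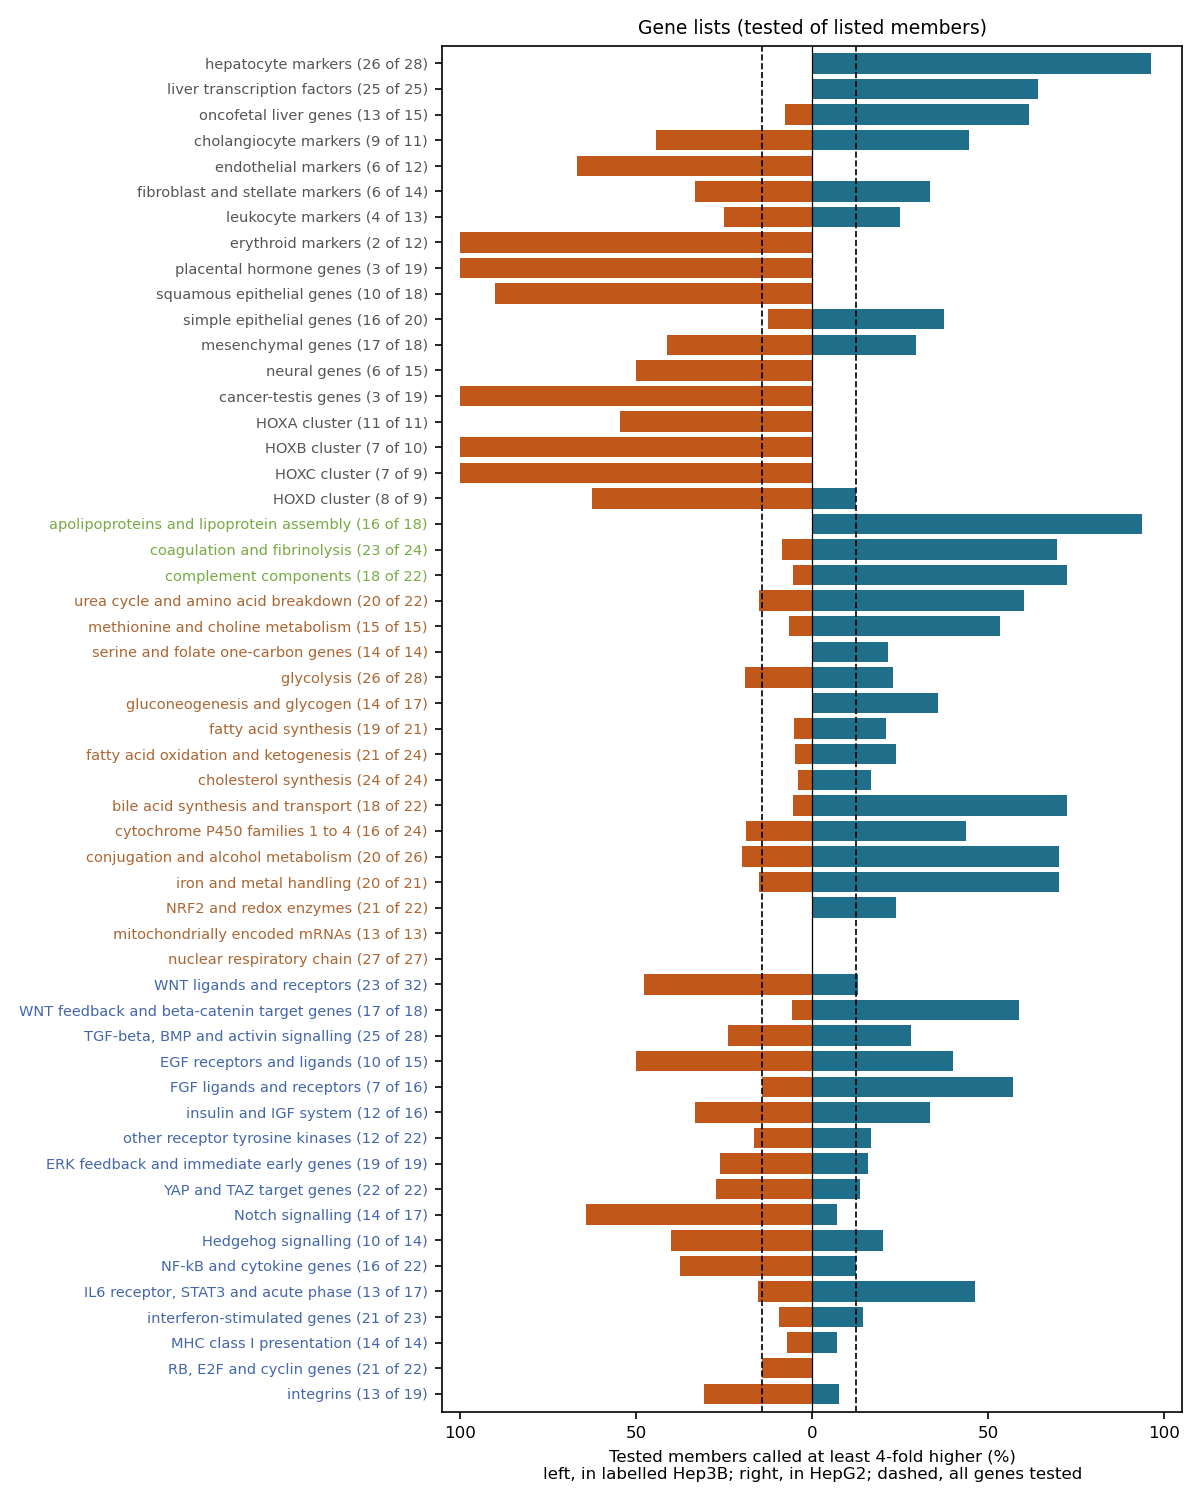
For each gene list, the percentage of tested members called at least 4-fold higher in the libraries labelled Hep3B (left) or in HepG2 (right); numbers give tested of listed members, dashed lines mark 14.4% and 12.5% of all genes tested, and label colours separate lineage, secreted, metabolic and signalling lists. Hepatocyte and plasma protein lists extend to the right, HOXB, HOXC and squamous lists to the left, and the nuclear respiratory chain has no member past 4-fold.

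In the WNT pathway, secreted ligands bind FZD receptors with LRP6, beta-catenin enters the nucleus, and target genes include feedback inhibitors. Of the WNT ligands and receptors, 23 of 32 were tested, 5 were called higher in HepG2 (3 of them at least 4-fold) and 16 higher in the labelled Hep3B libraries (11 at least 4-fold). WNT5A, a ligand that mostly acts without beta-catenin, had 40.3, 46.4 and 44.9 CPM in the libraries labelled Hep3B and 0, 1 and 1 counts in HepG2 (edgeR adjusted p = 8.43e-65). WNT10B, a ligand of the beta-catenin branch, had 57.4, 59.9 and 56.1 CPM in the libraries labelled Hep3B and 2, 1 and 1 counts in HepG2 (log2 difference -9.01, SE 0.18, edgeR adjusted p = 1.48e-70). FZD10 had 7.98, 6.82 and 8.24 CPM in the libraries labelled Hep3B and 0 counts in every library of HepG2 (at least 32.4-fold higher in the labelled Hep3B libraries, edgeR adjusted p = 4.12e-33), and the co-receptor LRP6 was present in both lines, with 189, 185 and 193 CPM in the libraries labelled Hep3B and 162, 160.3 and 161 CPM in HepG2. Of the WNT feedback and beta-catenin target genes, 17 of 18 were tested, 14 were called higher in HepG2 (10 of them at least 4-fold) and 2 higher in the labelled Hep3B libraries (1 at least 4-fold), with a median log2 difference of 5.42, or 2.76 with lines of at most 3 counts per library set to the floor.

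Feedback genes that were near 0 in the libraries labelled Hep3B were abundant in HepG2. LGR5, the R-spondin receptor of stem cells, had 283, 306 and 308 CPM in HepG2 and 0, 0 and 1 counts in the libraries labelled Hep3B (edgeR adjusted p = 4.42e-99). NKD1, a Dishevelled antagonist, was at 1.22, 0.772 and 0.642 CPM in the libraries labelled Hep3B and 435, 439 and 429 CPM in HepG2 (log2 difference 8.93, SE 0.08, edgeR adjusted p = 1.05e-102). NOTUM, a WNT-inactivating deacylase, was at 0.846, 0.707 and 0.481 CPM in the libraries labelled Hep3B and 229, 236 and 228 CPM in HepG2 (log2 difference 8.40, SE 0.09, edgeR adjusted p = 1.18e-95). AXIN2, the scaffold widely used as a readout of beta-catenin, was 75.6-fold higher in HepG2, with 1.16, 1.16 and 0.963 CPM in the libraries labelled Hep3B and 81.8, 83.9 and 83.5 CPM in HepG2. SP5, a repressor that beta-catenin switches on, was 122-fold higher, with 0.846, 0.579 and 0.214 CPM in the libraries labelled Hep3B and 61.7, 72.6 and 67.9 CPM in HepG2. LEF1, a partner of beta-catenin, went the other way, with 8.46, 8.17 and 7.75 CPM in the libraries labelled Hep3B and 1, 0 and 4 counts in HepG2 (log2 difference -5.88, SE 0.33, edgeR adjusted p = 5.12e-32), while its relative TCF7 had 0.423, 0.321 and 0.374 CPM in the libraries labelled Hep3B and 30.4, 33.2 and 33 CPM in HepG2 (log2 difference 6.39, SE 0.17, edgeR adjusted p = 2.56e-60). CCND1 and TBX3, also on the list, were present in both lines, with CCND1 1.38-fold higher in HepG2.

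Among TGF-beta family genes, the ligands BMP2, BMP4 and INHBB differed between the lines. Of the list, 25 of 28 were tested, 13 were called higher in HepG2 (7 of them at least 4-fold) and 11 higher in the labelled Hep3B libraries (6 at least 4-fold). BMP2 had 26.4, 23.3 and 23.7 CPM in the libraries labelled Hep3B and 0 counts in every library of HepG2 (at least 103-fold higher in the labelled Hep3B libraries, edgeR adjusted p = 1.84e-53). BMP4 had 0.846, 0.514 and 0.642 CPM in the libraries labelled Hep3B and 101, 91 and 94.1 CPM in HepG2 (log2 difference 7.12, SE 0.11, edgeR adjusted p = 1.57e-80). INHBB, the activin B subunit, had 63.7, 64.5 and 64.2 CPM in the libraries labelled Hep3B and 0, 4 and 2 counts in HepG2 (log2 difference -8.61, SE 0.17, edgeR adjusted p = 9.15e-72). FST, which captures activins, was 13.8-fold higher in HepG2. GDF15, a stress hormone of this family, was 66.8-fold higher in HepG2, with 0.74, 1.29 and 1.12 CPM in the libraries labelled Hep3B and 68.9, 71.2 and 68.7 CPM in HepG2. The BMP receptor BMPR1A was not called, with 73.2, 74.3 and 79.95 CPM in the libraries labelled Hep3B and 74.9, 71.7 and 74.8 CPM in HepG2 (edgeR adjusted p = 0.431).

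EGF receptors were divided between the lines. Of the EGF receptors and ligands, 10 of 15 were tested, 5 were called higher in HepG2 (4 of them at least 4-fold) and 5 higher in the labelled Hep3B libraries (5 at least 4-fold). EGFR itself was 17.5-fold higher in the libraries labelled Hep3B, with 669.6, 696 and 750.2 CPM in the libraries labelled Hep3B and 40.1, 41.5 and 39.5 CPM in HepG2 (log2 difference -4.13, SE 0.05, edgeR adjusted p = 6.17e-93). ERBB3, a receptor that needs a partner to signal, was 15.7-fold higher in HepG2, with 44, 38.1 and 39.4 CPM in the libraries labelled Hep3B and 647, 629 and 635 CPM in HepG2 (log2 difference 3.97, SE 0.05, edgeR adjusted p = 2.03e-93). ERBB2, its partner, was 3.21-fold higher there. NRG1, the ligand of ERBB3, was found in the other line, with 4.76, 3.99 and 6.42 CPM in the libraries labelled Hep3B and 0, 1 and 1 counts in HepG2 (edgeR adjusted p = 3.01e-25). HBEGF, a ligand of EGFR, was 6.47-fold higher in the libraries labelled Hep3B. ERRFI1, an inhibitor of EGFR, was 5.5-fold higher in HepG2.

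FGF and insulin genes differed in both directions. Of the FGF ligands and receptors, 7 of 16 were tested, 6 were called higher in HepG2 (4 of them at least 4-fold) and 1 higher in the labelled Hep3B libraries (1 at least 4-fold). For FGF ligands and receptors, the 4-fold count in labelled Hep3B was 2 with no filter on low counts. FGFR4 and its co-receptor KLB, which together receive the gut hormone FGF19, were 7.2-fold and 46.3-fold higher in HepG2. KLB had 7.88, 5.59 and 6.69 CPM in the libraries labelled Hep3B and 315, 314 and 315 CPM in HepG2. FGF2 was 23.3-fold higher in the libraries labelled Hep3B. Of the insulin and IGF genes, 12 of 16 were tested, 7 were called higher in HepG2 (4 of them at least 4-fold) and 5 higher in the labelled Hep3B libraries (4 at least 4-fold). INSR, the insulin receptor, was present in both lines, with 109.8, 115 and 123 CPM in the libraries labelled Hep3B and 162, 159 and 163 CPM in HepG2. IRS2, the docking protein that carries the insulin signal in liver, had 103, 104 and 101 CPM in the libraries labelled Hep3B and 0, 1 and 0 counts in HepG2 (edgeR adjusted p = 5.90e-81). IGFBP1, a hepatic IGF binding protein, was 128-fold higher in HepG2, and IGFBP7 was 173-fold higher in the libraries labelled Hep3B.

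Other receptor tyrosine kinases and the genes that follow ERK activity varied gene by gene. Of the kinases, 12 of 22 were tested, 5 were called higher in HepG2 (2 of them at least 4-fold) and 7 higher in the labelled Hep3B libraries (2 at least 4-fold). EPHB2, an ephrin receptor, had 121, 118 and 129 CPM in the libraries labelled Hep3B and 0, 1 and 4 counts in HepG2 (log2 difference -9.80, SE 0.15, edgeR adjusted p = 2.09e-82). MST1R, the receptor of macrophage-stimulating protein, was 37.1-fold higher in the libraries labelled Hep3B. MERTK, which binds GAS6, was 358-fold higher in HepG2. Of the ERK feedback and immediate early genes, 19 of 19 were tested, 9 were called higher in HepG2 (3 of them at least 4-fold) and 9 higher in the labelled Hep3B libraries (5 at least 4-fold), with a median log2 difference of 0.01 that turned to -0.35 with library totals. For ERK feedback and immediate early genes, the genes called higher in HepG2 and in labelled Hep3B numbered 7 and 12 with library totals, and the 4-fold count in HepG2 was 1 with library totals. The phosphatases DUSP4 and DUSP5 were lower in HepG2. DUSP4 had 73.5, 73.2 and 72 CPM in the libraries labelled Hep3B and 1, 3 and 2 counts in HepG2 (log2 difference -8.79, SE 0.16, edgeR adjusted p = 6.15e-75). DUSP5 had 33.9, 34.7 and 34.6 CPM in the libraries labelled Hep3B and 0.893, 0.877 and 0.483 CPM in HepG2 (log2 difference -5.50, SE 0.15, edgeR adjusted p = 4.19e-58). FOSL2, an AP-1 subunit, was 8.13-fold higher in the libraries labelled Hep3B.

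**Figure D5:**
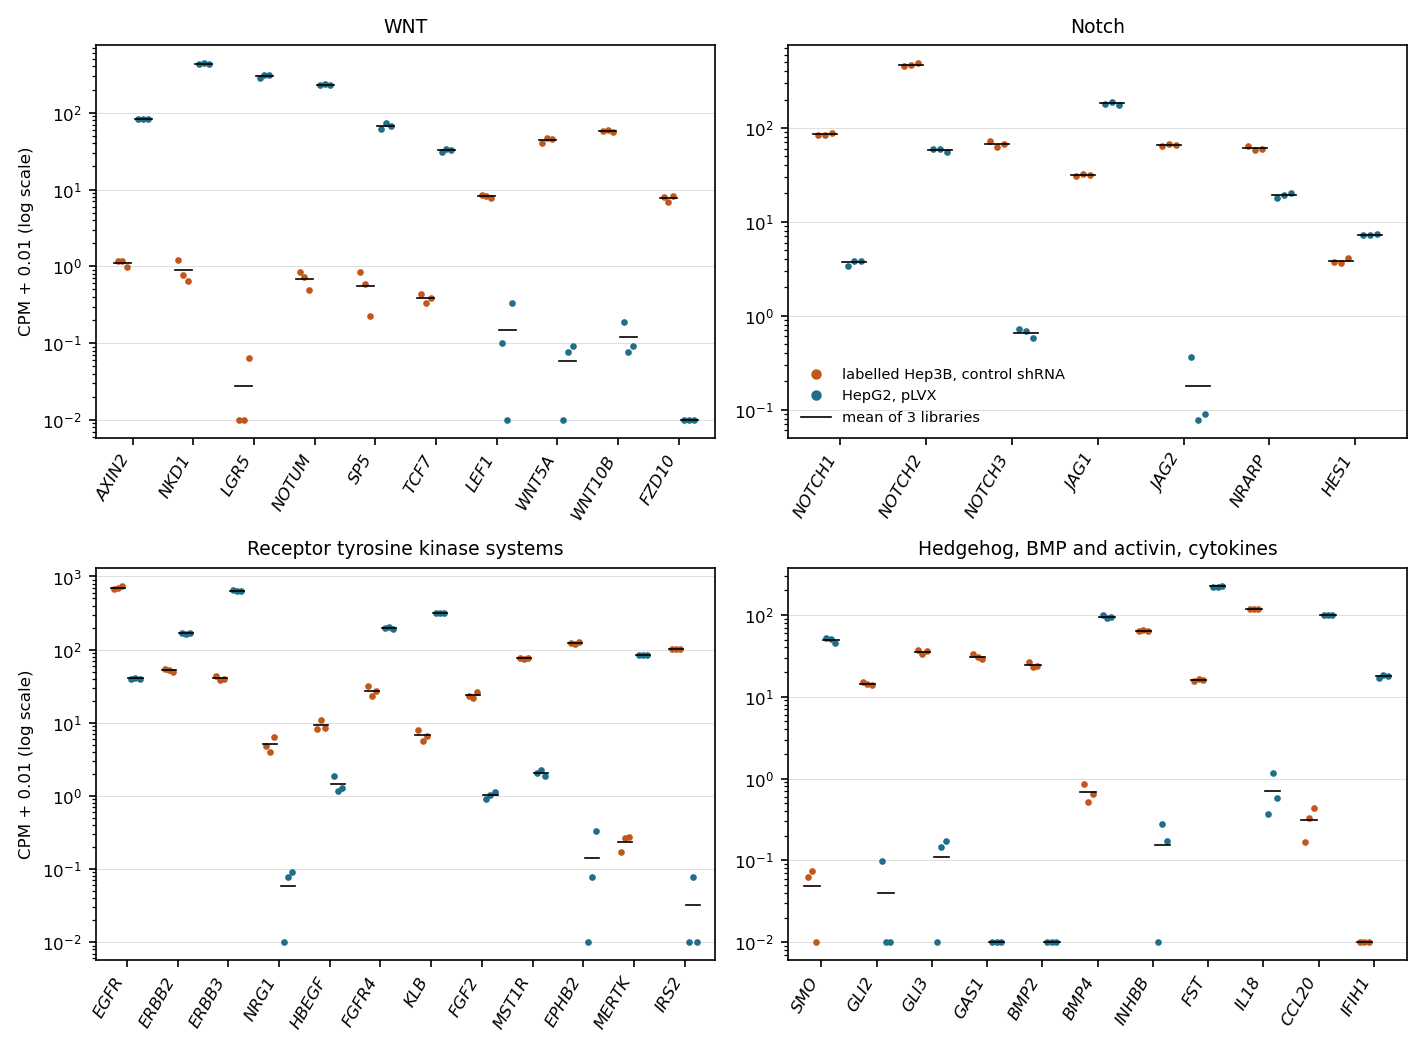
CPM + 0.01 on a log scale of signalling genes in the 3 control libraries of each line, by pathway; dots are libraries, bars are means, and dots at 0.01 have 0 counts. WNT feedback genes such as NKD1 and LGR5 are high in HepG2, while NOTCH1 to NOTCH3, EGFR, IRS2 and the GLI factors are high in the libraries labelled Hep3B.

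Notch receptors were higher in the libraries labelled Hep3B. Of the Notch genes, 14 of 17 were tested, 4 were called higher in HepG2 (1 of them at least 4-fold) and 10 higher in the labelled Hep3B libraries (9 at least 4-fold), with a median log2 difference of -2.66, or -2.49 with lines of at most 3 counts per library set to the floor. For Notch signalling, the 4-fold count in HepG2 was 2 with no filter on low counts, labelled Hep3B replicate 2 left out, HepG2 replicate 2 left out or HepG2 replicate 3 left out. NOTCH2, the main receptor of bile duct formation, was 8.05-fold higher there, with 452, 463 and 486 CPM in the libraries labelled Hep3B and 59.8, 58.9 and 55.3 CPM in HepG2 (log2 difference -3.01, SE 0.04, edgeR adjusted p = 6.94e-83). NOTCH1 was 23.1-fold higher and NOTCH3 102-fold higher. The ligands differed in direction. JAG2 had 64.1, 67.6 and 65.8 CPM in the libraries labelled Hep3B and 4, 1 and 1 counts in HepG2 (log2 difference -8.65, SE 0.17, edgeR adjusted p = 2.92e-72). JAG1 was 5.76-fold higher in HepG2, with 30.9, 32.3 and 31.4 CPM in the libraries labelled Hep3B and 181, 189 and 175 CPM in HepG2. Among the targets, NRARP had 64.3, 57.5 and 59.95 CPM in the libraries labelled Hep3B and 17.8, 19.4 and 20.1 CPM in HepG2 (log2 difference -1.66, SE 0.07, edgeR adjusted p = 1.98e-43). HES1 had 3.75, 3.67 and 4.06 CPM in the libraries labelled Hep3B and 7.14, 7.15 and 7.41 CPM in HepG2 (log2 difference 0.91, SE 0.15, edgeR adjusted p = 6.62e-08).

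SMO and the GLI factors of the Hedgehog pathway differed in opposite directions. Of the list, 10 of 14 were tested, 4 were called higher in HepG2 (2 of them at least 4-fold) and 5 higher in the labelled Hep3B libraries (4 at least 4-fold). For Hedgehog signalling, the genes called higher in HepG2 and in labelled Hep3B numbered 3 and 6 with library totals. SMO, the membrane protein that passes the signal on, had 51.9, 50.7 and 45.5 CPM in HepG2 and 1, 1 and 0 counts in the libraries labelled Hep3B (edgeR adjusted p = 1.04e-69). The transcription factors that act after it went the other way. GLI2 had 15, 14.4 and 13.7 CPM in the libraries labelled Hep3B and 1, 0 and 0 counts in HepG2 (edgeR adjusted p = 3.88e-44). GLI3 had 36.8, 33.4 and 36.3 CPM in the libraries labelled Hep3B and 0, 2 and 2 counts in HepG2 (log2 difference -8.31, SE 0.21, edgeR adjusted p = 1.03e-60). GAS1, a co-receptor of the ligand, had 33.6, 30.7 and 28.6 CPM in the libraries labelled Hep3B and 0 counts in every library of HepG2 (at least 131-fold higher in the labelled Hep3B libraries, edgeR adjusted p = 1.40e-57). GLI1, a common readout of the pathway, was too low to test in either line.

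Genes of YAP and TAZ were mixed. Of the list, 22 of 22 were tested, 9 were called higher in HepG2 (3 of them at least 4-fold) and 10 higher in the labelled Hep3B libraries (6 at least 4-fold). CCN2 (CTGF), a widely used target, was 11-fold higher in HepG2, with 24.2, 29.8 and 29 CPM in the libraries labelled Hep3B and 303, 307 and 300.1 CPM in HepG2. MYOF, a membrane repair protein, and AMOTL1, an adaptor that binds YAP, were 462-fold and 130.3-fold higher in the libraries labelled Hep3B. DLC1, a RhoGAP deleted in some liver cancers, had 156, 159.6 and 157 CPM in HepG2 and 2, 2 and 0 counts in the libraries labelled Hep3B (log2 difference 10.88, SE 0.13, edgeR adjusted p = 2.37e-90). Integrins also differed by subunit: 13 of 19 were tested, 5 were called higher in HepG2 (1 of them at least 4-fold) and 6 higher in the labelled Hep3B libraries (4 at least 4-fold). For integrins, the genes called higher in HepG2 and in labelled Hep3B numbered 4 and 8 with library totals, and the 4-fold count in HepG2 was 0 with library totals. ITGA3 and ITGA5, which pair with ITGB1 to bind laminin and fibronectin, were 102-fold and 167-fold higher in the libraries labelled Hep3B. ITGB8 had 47.4, 50.6 and 55.8 CPM in the libraries labelled Hep3B and 0, 1 and 0 counts in HepG2 (edgeR adjusted p = 1.89e-67). ITGAV and ITGA2 were not called, with adjusted p of 0.0632 and 0.683 by edgeR.

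NF-kB subunits were present in both lines, and cytokine genes differed in both directions. Of the NF-kB and cytokine genes, 16 of 22 were tested, 3 were called higher in HepG2 (2 of them at least 4-fold) and 9 higher in the labelled Hep3B libraries (6 at least 4-fold). For NF-kB and cytokine genes, the 4-fold count in HepG2 was 1 with upper-quartile scaling or library totals. NFKB1 and RELA, the subunits of the classical dimer, were not called (edgeR adjusted p = 0.0785 and 0.556). NFKB2 of the alternative branch was 5.48-fold higher in the libraries labelled Hep3B, and BIRC3, an inhibitor of cell death, was 15.9-fold higher. IL18 was at 119, 117 and 116 CPM in the libraries labelled Hep3B and 0.357, 1.15 and 0.564 CPM in HepG2 (log2 difference -7.32, SE 0.11, edgeR adjusted p = 3.75e-81). CCL20, a chemokine that liver tumours can make, was at 0.159, 0.321 and 0.428 CPM in the libraries labelled Hep3B and 99.5, 101 and 100.2 CPM in HepG2 (log2 difference 8.34, SE 0.12, edgeR adjusted p = 1.20e-82). Of the IL6 and acute phase genes, 13 of 17 were tested, 9 were called higher in HepG2 (6 of them at least 4-fold) and 3 higher in the labelled Hep3B libraries (2 at least 4-fold). STAT3 was not called, with 142, 142 and 135 CPM in the libraries labelled Hep3B and 144, 144 and 146 CPM in HepG2 (edgeR adjusted p = 0.229). HP, haptoglobin, had 253, 263 and 254 CPM in HepG2 and 0, 0 and 2 counts in the libraries labelled Hep3B. FGL1, another acute phase protein, had 729, 705 and 736 CPM in HepG2 and 2, 2 and 2 counts in the libraries labelled Hep3B. ORM1 had 242, 153 and 230.2 CPM in HepG2 and 0 counts in every library labelled Hep3B (at least 1221-fold higher in HepG2, edgeR adjusted p = 3.28e-79), with the near-identical ORM2 beside it.

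Single genes of interferon response and antigen presentation differed, while 4-fold calls were near or below the share of all genes tested. At least 4-fold higher in HepG2 and in labelled Hep3B were 14.3% and 9.52% of tested interferon-stimulated genes. For MHC class I genes it was 7.14% in each direction. For all genes tested it was 12.5% and 14.4%, with 42.1% and 43% called by the adjusted p alone. Of the interferon-stimulated genes, 21 of 23 were tested, 8 were called higher in HepG2 (3 of them at least 4-fold) and 11 higher in the labelled Hep3B libraries (2 at least 4-fold). For interferon-stimulated genes, the 4-fold count in labelled Hep3B was 4 with library totals and 1 with labelled Hep3B replicate 3 left out or HepG2 replicate 1 left out. IFIH1 (MDA5), a sensor of long double-stranded RNA, had 17.1, 18.5 and 17.8 CPM in HepG2 and 0 counts in every library labelled Hep3B (at least 104-fold higher in HepG2, edgeR adjusted p = 3.72e-50). OAS1, which makes the activator of RNase L, was 5.95-fold higher in the libraries labelled Hep3B. Of the MHC class I genes, 14 of 14 were tested, 5 were called higher in HepG2 (1 of them at least 4-fold) and 7 higher in the labelled Hep3B libraries (1 at least 4-fold). For MHC class I presentation, the 4-fold count in HepG2 was 2 with labelled Hep3B replicate 1 left out or labelled Hep3B replicate 2 left out, and the 4-fold count in labelled Hep3B was 3 with library totals. PSMB8, an immunoproteasome subunit, had 22.8, 24.1 and 21.4 CPM in HepG2 and 4, 1 and 1 counts in the libraries labelled Hep3B (log2 difference 7.56, SE 0.23, edgeR adjusted p = 2.54e-54). HLA-B was 4.61-fold higher in the libraries labelled Hep3B, though reads of HLA genes may have been split by their similarity. NLRC5, the transactivator of class I genes, was 3.71-fold higher in the libraries labelled Hep3B.

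Cell cycle genes were called in both directions, as were all genes tested. At least 4-fold higher in HepG2 and in labelled Hep3B were 0% and 14.3% of those tested, beside 12.5% and 14.4% of all genes. By the adjusted p alone, 42.1% and 43% of all genes were called. Of the RB, E2F and cyclin genes, 21 of 22 were tested, 11 were called higher in HepG2 (0 of them at least 4-fold) and 9 higher in the labelled Hep3B libraries (3 at least 4-fold). For RB, E2F and cyclin genes, the genes called higher in HepG2 and in labelled Hep3B numbered 9 and 12 with library totals, and the 4-fold count in HepG2 was 1 with labelled Hep3B replicate 1 left out. The neighbouring inhibitors CDKN2A and CDKN2B were both higher in the libraries labelled Hep3B. CDKN2A had 49.7, 46.6 and 39.95 CPM in the libraries labelled Hep3B and 0.893, 1.01 and 0.805 CPM in HepG2 (log2 difference -5.63, SE 0.14, edgeR adjusted p = 6.62e-62). CDKN2B had 11, 11.4 and 10.7 CPM in the libraries labelled Hep3B and 0.446, 0.27 and 0.483 CPM in HepG2 (log2 difference -4.80, SE 0.24, edgeR adjusted p = 3.02e-36). MTAP, which lies next to them on chromosome 9, had 69.9, 70.7 and 71.7 CPM in the libraries labelled Hep3B and 81.8, 81.3 and 86.1 CPM in HepG2. RB1 had 64.5, 63.3 and 66.4 CPM in the libraries labelled Hep3B and 74.7, 78 and 72.9 CPM in HepG2. For MTAP and RB1, library totals turned the sign of the log2 difference, to -0.12 and -0.14.

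The most abundant of the strongly different genes show the contrast in a few names. Among protein-coding genes called at least 16-fold, the 12 highest in FPKM in HepG2 were ALB, AFP, APOA2, APOH, APOA1, APOB, AHSG, ITIH2, GPC3, SERPINA1, LYZ and A2M. ALB alone was at 6237 ± 129.7 FPKM. The 12 highest in the libraries labelled Hep3B were S100A4, FOLR1, MUC13, S100A11, PLP2, CGA, TMSB4X, ALPL, PAGE1, S100A6, EFEMP1 and SLPI. FOLR1, a folate receptor of several carcinomas, was at 421 ± 8.32 FPKM there and at 0.113 ± 0.0635 FPKM in HepG2. MUC13, a membrane mucin of gut epithelium, was at 359 ± 17.7 FPKM and 0.18 ± 0.040 FPKM. SLPI, a secreted protease inhibitor of mucosal surfaces, had 78.8, 82 and 76.2 CPM in the libraries labelled Hep3B and 0 counts in every library of HepG2.

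Several genes named here share over 20% of their annotated exon bases with another counted gene. With the strand setting of the counting unknown, their reads cannot be told apart from the partner's. Among them are VIM with VIM-AS1, VIL1 with USP37, PAX6 with ELP4, ARG2 with VTI1B and ACTA2 with ACTA2-AS1. TUBB3, HBE1, CFI, LDHB, KHK and PSMB8 are others. For HBE1 the shared part was 90% of its exon bases.

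The direction of the line difference also varied by chromosome. Over 11632 genes of at least 5 CPM on average, the median log2 difference was 0.04. It was 0.88 on chromosome 20, 0.65 on chromosome 2, 0.60 on chromosome 4 and 0.55 on chromosome 6, and it was -0.67 on chromosome X, -0.57 on chromosome 21, -0.49 on chromosome 7 and -0.38 on chromosome 9. These are medians over genes, given with no test.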

How the data were processed

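Raw counts per Ensembl gene ID and FPKM values, rounded to 2 decimals, were deposited by the authors for each library; reads had been through HTSeq 0.6.1, HISAT2 2.2.1 and cutadapt 1.9.1 per the submitters' processing notes. Build, annotation, strand setting and the gene lengths behind FPKM are not given in the sources used here. The table held 61806 gene IDs, 49 without a symbol. Gene positions and overlaps came from GENCODE version 29 (GRCh38). Counts of the 6 control libraries entered edgeR 4.0.16 in R 4.3.3 (quasi-likelihood test, TMM, filterByExpr, 2-sided, Benjamini-Hochberg), and the other 6 libraries in a fit of their own. On simulated counts of 16688 genes for this comparison, 96%, 94%, 100% and 100% of genes changed 1.5, 2, 4 and 16-fold were recovered, and 0.0546% of unchanged genes were called. Only 200 genes were changed there, balanced in direction and above a minimum count, with the same spread for all genes. In the data 85.2% of genes were called, so the simulation checks the code and does not measure error in this comparison. No library was a copy of another (chi-square per gene between replicates 1.7 to 2.53). The floor of 3 counts covers counting error only, since PCR copies cannot be recognised without molecular identifiers. A fold against a line with 0 counts is a lower bound against 3 counts per library. With 1 to 3 counts in a line no fold is given, and a log2 difference printed for such a gene is loosely set. With that line at the floor, the log2 difference of GPC3 was 14.21 in place of 14.95. That of KRT7 was -8.95 in place of -10.03. Of 54 gene lists, 961 of 965 distinct genes were in the table. DESeq2 1.42.0, limma 3.58.1 on log2(FPKM + 1 or 0.1), other scalings, filters, a replicate block and leaving out each library were alternatives.

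The members and lists were chosen with earlier results of these data known. Genes were named by rule: label check genes and isozyme pairs; HOX genes of at least 5 CPM; per list up to 4 called members with the largest differences and at least 5 CPM, and up to 2 of at least 20 CPM in both lines with the smallest; and the 12 highest genes per line called at least 16-fold. AXIN2, CEBPA, FST, HES1, HNF4A, LEF1, NRARP, ONECUT2, SP5 and TCF7 were named after their values were seen. Some genes, and 1 list, are not reported here; members not reported still count in their lists.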

Additional observations from a re-analysis of the deposited data

Results flagged for a closer look

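For 5 named genes, CPM on library totals separated the lines in one direction in controls and in the other in the CD146-perturbed libraries, and the difference between these contrasts was not tested. MCAM, the gene of CD146 and the one perturbed, had a log2 difference (HepG2 minus labelled Hep3B) of -2.00 in controls and 6.58 in the perturbed libraries. PDGFRB, a platelet-derived growth factor receptor, had 0.96 and -0.33. TBX3, a T-box factor of liver development, had 0.47 and -0.17. GBE1, the glycogen branching enzyme, had -0.11 and 0.53, but with TMM scaling its control groups overlapped and the control difference was not called (edgeR adjusted p = 0.195). SLC11A2, an importer of iron, had -0.33 and 0.25.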

How the results depend on the processing

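Of 298 named genes tested, 258 kept their direction and side of the threshold under every alternative of the control comparison, and 40 did not under at least 1. Of 108 list counts, 87 stayed within 1.5 times, and the other 21 moved further; their values stand beside their lists, DESeq2 and no filter could test more members, and the label check genes had 1 member at least 4-fold higher in labelled Hep3B and 2 under the alternatives that moved it. Genes called at least 4-fold numbered 3545 higher in HepG2 and 4022 higher in labelled Hep3B with no filter, and 738 and 878 with limma on log2(FPKM + 1), where the added value shrinks low genes. Leaving out each library gave 14580 to 15035 genes called, 7134 to 7424 higher in HepG2, 7391 to 7657 higher in labelled Hep3B, 2208 to 2375 and 2513 to 2790 at least 4-fold, and 316 to 337 and 323 to 348 genes in HepG2 or labelled Hep3B alone. Whether replicate numbers pair the lines is not stated. Same-numbered libraries correlated in their deviations at 0.028, 0.032 and 0.043, and differently numbered ones at -0.0226 to -0.0089. Each library thus correlated best with its own number, though weakly, and a batch shared by number was not tested. With a replicate block, 14712 genes were called, and 2188 and 2498 at least 4-fold. Genes in labelled Hep3B alone numbered 196 at 20 CPM, and 80 with 0 counts in HepG2; in HepG2 alone, 126 with 0 counts in labelled Hep3B. With all tested genes, chromosome medians were -0.40 (1), 0.55 (2), -0.15 (3), 0.53 (4), -0.28 (5), 0.53 (6), -0.52 (7), -0.42 (9), -0.16 (10), -0.048 (11), -0.29 (12), 0.18 (13), 0.33 (14), -0.10 (15), 0.094 (17), -0.064 (19), 0.80 (20), -0.66 (21) and 0.14 (22). The log2 difference turned negative with library totals, limma on log2(FPKM + 1) and limma on log2(FPKM + 0.1) for RB1 (-0.14, -0.13, -0.14), MTAP (-0.12, -0.10, -0.12), MAT2A (-0.22, -0.22, -0.22), PYGB (-0.0085, -0.0045, -0.0048), FTH1 (-0.15, -0.15, -0.15), MT-CO3 (-0.011, -0.010, -0.010), EPHB4 (-0.060, -0.055, -0.059), ETV5 (-0.21, -0.19, -0.20), CCNE1 (-0.19, -0.17, -0.19), and for MT-ATP6 with library totals only (-0.00076). Isozyme pairs with a form at 0 FPKM had no alternative run. Depth limits genes near 3 counts per library.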
